A study of Mus musculus with 2 samples.

Results

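Interferon-β (Ifnb1) and the 4 receptor chains for type I and type II interferon (Ifnar1, Ifnar2, Ifngr1 and Ifngr2) were followed in RNA of the nuclear fraction, called nucleoplasmic in part of the labels, of restimulated macrophages. These 5 genes were taken by symbol, out of 55536 annotated genes in the tables, for their place in the pathway. Earlier results of these data were known when they were chosen. The cells were bone-marrow-derived macrophages (BMDM) of C57BL/6J mice, with no further allele named. They had met Lipid A, the TLR4-activating part of lipopolysaccharide, at 100 ng/ml for 12 h, been washed out for 12 h, and met 100 ng/ml again for 40 min. RNA depleted of ribosomal RNA was sequenced in 2 libraries, which the labels call biological replicates but give 1 donor entry, and whether they came from separate animals is not stated. No unstimulated or singly stimulated cells were analysed here. The values below are therefore levels in 1 condition, with no test of a response.

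Interferon-β is the type I interferon that macrophages make first when TLR4 signals from endosomes through the adaptor TRIF, the kinase TBK1 and the factor IRF3. It binds a receptor of the chains IFNAR1 and IFNAR2, whose associated kinases TYK2 and JAK1 carry the signal into the cell. Interferon-γ, made mainly by T and natural killer cells, uses the chains IFNGR1 and IFNGR2 with JAK1 and JAK2. Macrophages thus carry receptors both for a ligand they secrete and for one they receive from lymphocytes. Macrophages pretreated with a TLR4 ligand are a model of endotoxin tolerance.

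Library 1, made from 1 µg of RNA, held 19797829 expected counts on annotated genes, and library 2, made from 500 ng, held 17213606. The mitochondrial share of counts was 2.63% in library 1 and 6.60% in library 2, and this is RNA from outside the nucleus. Its part in the levels below was not tested. All 7 macrophage markers were detected, that is, had 10 or more expected counts in both libraries, from Lyz2 at 1421 and 1201 TPM to Spi1 at 47.3 and 32.2 TPM, and their levels summed to 2795 and 2254 TPM. None of 8 markers of T and natural killer cells was detected, with 5 of them at 0 in both libraries and a sum of 0.19 and 0.10 TPM. These are RSEM values. Kallisto, the second counting program, placed Cd3d at 1.00 and 3.63 TPM, beside 2.90 and 3.54 TPM for Ifnb1, and the other genes of that list lower. None of 6 fibroblast markers was detected, with 2 at 0 and a sum of 0.26 and 0.19 TPM. Of 6 markers of plasmacytoid dendritic cells 4 were detected and Klk1 was at 0. Their sum, 308 and 136 TPM, was mostly the interferon-induced Bst2, at 252 and 99.3 TPM, and Tcf4, at 54.0 and 34.4 TPM. Ccr9 stood at 1.96 and 1.83 TPM and Siglech at 0.35 and 0.28 TPM, and Spib was not detected. The markers of this list thus did not all go the same way. In bulk RNA, fewer cells expressing a gene and less RNA per cell cannot be told apart.

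The start regions of Ifnb1, Ifnar1 and Ifngr1 are shown, and those of Ifnar2 and Ifngr2 are described after them. Any link between these letters and the levels was not tested. RefSeq sequence (GRCm38.p6, the assembly also called mm10) is given 5′ to 3′ on the strand of each gene, from 250 to 61 bases before the RefSeq start site. Capitals in Ifnb1 mark AANNGAAA (an IRF half-site), an NF-κB site (letters given with the counts after the sequences) and TATAAA. The last, the letters of a TATA box, fell at 210 to 205 and 82 to 77 bases before the start. Capitals in the receptor genes mark GGGCGG (a GC box) on either strand. Ifnb1 lies on the minus strand (chr4:88522855-88523044), Ifnar1 on the plus strand (chr16:91484965-91485154) and Ifngr1 on the plus strand (chr10:19591699-19591888).
Ifnb1: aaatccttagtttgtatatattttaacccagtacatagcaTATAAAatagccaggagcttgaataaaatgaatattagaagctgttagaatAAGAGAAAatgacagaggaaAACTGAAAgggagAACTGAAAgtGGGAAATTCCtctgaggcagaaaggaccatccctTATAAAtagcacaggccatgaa
Ifnar1: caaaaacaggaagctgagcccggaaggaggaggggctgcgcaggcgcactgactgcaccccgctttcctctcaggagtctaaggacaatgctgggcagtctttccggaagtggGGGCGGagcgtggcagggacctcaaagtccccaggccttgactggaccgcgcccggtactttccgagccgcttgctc
Ifngr1: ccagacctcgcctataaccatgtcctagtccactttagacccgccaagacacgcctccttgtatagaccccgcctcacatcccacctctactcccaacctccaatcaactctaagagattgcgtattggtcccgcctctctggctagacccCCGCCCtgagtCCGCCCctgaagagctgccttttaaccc

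Over the full 250 bases and both strands, the Ifnb1 window held 3 matches to AANNGAAA, 1 to the NF-κB site and 2 to TATAAA. The NF-κB site was searched as GGG and, after any 3 bases, TTCC. The IRF half-sites at 139 to 132 and 126 to 119 bases before the start and the NF-κB match at 116 to 107 lay side by side without overlap. At least 1 match to these motifs was found in 21.3%, 4.65% and 12.4% of the 32851 promoter windows of the same length. The 4 receptor windows held no match to AANNGAAA or TATAAA. The GC box, present in 32.7% of all windows, was matched 2 times in Ifnar1, 2 times in Ifngr1 and 4 times in Ifngr2, where 2 of the matches share a base. It was matched neither in Ifnar2 nor in Ifnb1. The Ifngr2 window also held 1 match to the NF-κB site, on the minus strand, and the Ifnar2 window 1 match to TTCNNNGAA (a GAS element), which 7.02% of all windows hold. The core of an interferon-stimulated response element (GAAA, any 2 bases, then GAAA), every match of which also holds AANNGAAA, was matched in none of these 5 windows and in 2.98% of all. GC content of the 250 bases was 39.6% in Ifnb1, 65.6% in Ifnar1, 54.0% in Ifnar2, 59.2% in Ifngr1 and 74.0% in Ifngr2. A match describes the letters only and shows no binding.

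Ifnb1 RNA was present in both libraries at a middling level for a detected protein-coding gene. Ifnb1 (ENSMUSG00000048806.4, chr4:88522025-88522774, mm10, minus strand) is a single exon of 750 bases. It held 129 expected counts in library 1 (95% exact Poisson interval 108 to 153) and 67 in library 2 (51.9 to 85.1). These intervals cover counting error only and do not overlap. The authors' posterior SD of both counts was 0. Kallisto gave the gene 163 and 110 estimated counts. The RSEM level was 11.0 TPM in the first of these and 5.60 TPM in the second, with a mean of 8.32 ± 3.84 TPM (SD, n = 2). The median of the 10991 detected protein-coding genes was 7.07 TPM in the first library and 5.57 TPM in the second. By mean TPM Ifnb1 stood at percentile 56.8 ± 7.82 of these genes. Here ± is the SD of its percentiles in the 2 libraries, 61.1 and 50.1. Ranked by CPM, which is not divided by length, the same gene stood at percentile 26.6. With a single exon and no intron, RNA still being made and finished RNA cannot be told apart for this gene.

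No other interferon gene reached the detection minimum. Of 20 other type I, II and III interferon genes, 17 had 0 counts in both libraries, among them Ifng, Ifne, Ifnl2, Ifnl3 and every numbered interferon-α gene but Ifna2. A count of 0 allows up to 3 counts, or 0.152 CPM (counts scaled to the library total) in library 1 and 0.174 CPM in library 2, beside 6.52 and 3.89 CPM for Ifnb1. The other 3 were Ifnk with 10 and 3 counts, Ifna2 with 2 and 0, and Ifnab with 0 and 1. Detection was reached by 49.9% of all 22028 protein-coding genes. Near-identical interferon-α genes share reads, but here their sum was also close to 0: all 20 genes together held 12 counts in library 1 and 4 in library 2. Kallisto placed Ifnk at 0.242 and 0.703 TPM and Ifna16 at 0.232 and 0.174 TPM, both below its 2.90 and 3.54 TPM for Ifnb1.

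All 4 receptor chains were detected, and each stood above Ifnb1 with no overlap between the libraries. Among detected protein-coding genes 31.6% stood above Ifnb1 in the same way. Ifnar1 (ENSMUSG00000022967.13, chr16:91485238-91507441, plus strand), the chain that carries TYK2, held 6168 counts and 96.8 TPM in library 1 and 3631 counts and 53.1 TPM in library 2. Ifngr1 (ENSMUSG00000020009.13, chr10:19591949-19610229, plus strand), the ligand-binding chain for interferon-γ, held 2345 counts and 77.6 TPM in library 1 and 1648 counts and 50.9 TPM in library 2. Ifnar2 (ENSMUSG00000022971.18, chr16:91372783-91405589, plus strand), the high-affinity chain for type I interferon, held 2339 counts and 59.9 TPM in library 1 and 1796 counts and 53.7 TPM in library 2. These 3 chains stood at percentiles 94.7 ± 1.33, 93.7 ± 0.669 and 92.7 ± 0.920, so they were among the more abundant transcripts. Ifngr2 (ENSMUSG00000022965.8, chr16:91547072-91565623, plus strand), the JAK2-carrying chain, was the lowest receptor chain, with 1567 counts and 23.7 TPM in library 1 and 1250 counts and 16.1 TPM in library 2, at percentile 78.0 ± 2.07.

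In order of mean level, Ifnar1 (74.9 ± 30.9 TPM), Ifngr1 (64.2 ± 18.9 TPM) and Ifnar2 (56.8 ± 4.36 TPM; SD, n = 2 each) could not be ranked, since their libraries overlapped. Ifngr2 (19.9 ± 5.39 TPM) lay below Ifnar2 and above Ifnb1 with no overlap on either side. The order of the upper chains changed with kallisto, which put Ifngr1 first at 29.0 and 53.1 TPM, Ifnar1 at 23.2 and 31.6 TPM and Ifnar2 at 16.4 and 34.1 TPM. Kallisto also gave Ifngr2 as the lowest receptor chain within each library, at 11.5 and 19.6 TPM. Its TPM scale runs the other way between the libraries: the median log2 ratio of library 2 over library 1 was 0.87 with kallisto and -0.36 with RSEM over detected protein-coding genes.

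**Figure D1:**
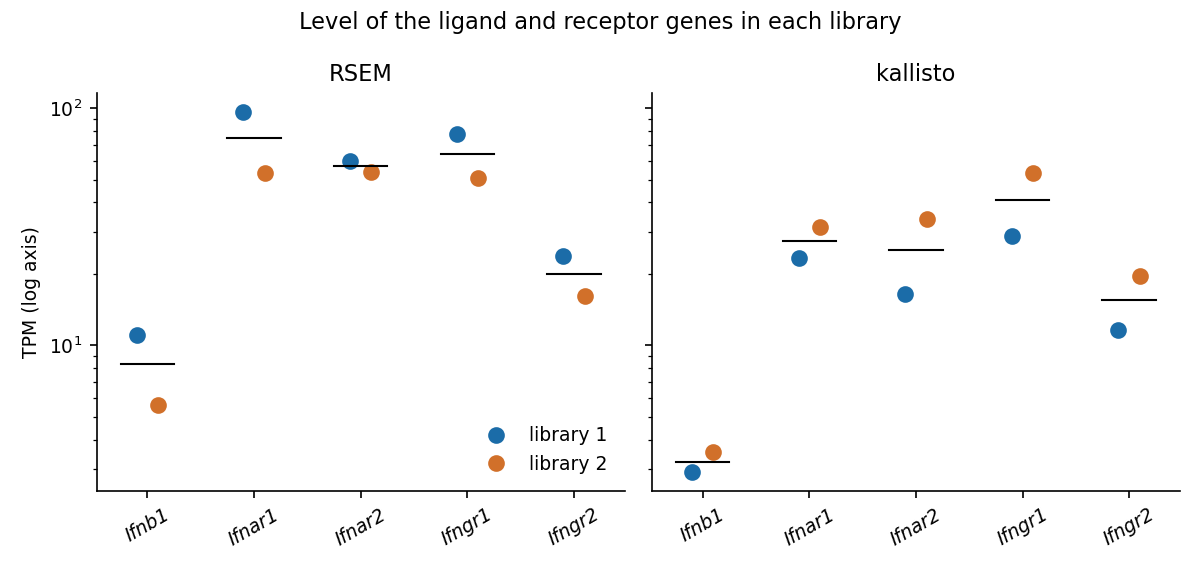
Level (TPM, log axis) of Ifnb1 and the 4 receptor genes in library 1 (blue) and library 2 (orange), with RSEM on the left and kallisto on the right; bars mark the mean of both libraries. Ifnb1 is the lowest of the 5 in both panels, and Ifngr2 is the lowest receptor gene.

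Set against each chain within a library, Ifnb1 RNA was scarce per length. The log2 ratio of Ifnb1 over Ifnar1 was -3.13 in library 1 and -3.24 in library 2, and that over Ifngr1 was -2.81 and -3.18. Against Ifnar2 it was -2.44 and -3.26, and against Ifngr2 -1.10 and -1.52. Ifnar1 was thus 8.77-fold above Ifnb1 in library 1 and 9.48-fold above it in library 2, which made this the steadiest of the 4 ratios. With kallisto the mean ratio over Ifngr2 was -2.23, against -1.31 with RSEM. Ifngr2, a chain for interferon-γ and not for interferon-β, was the receptor gene nearest to Ifnb1 in level. Ifnb1 was 3.97-fold and 5.55-fold below it with kallisto, and 2.15-fold and 2.87-fold below it with RSEM.

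By TPM summed over all transcripts of a gene, the chains that pair in 1 receptor differed in how closely they kept step. Ifngr1 stood 3.27-fold above Ifngr2 in library 1 and 3.16-fold above it in library 2, a mean log2 ratio of 1.69 ± 0.04 (SD, n = 2). Kallisto gave 2.51-fold and 2.71-fold. Ifnar1 stood 1.62-fold above Ifnar2 in library 1 but at 0.988 of it in library 2, a mean log2 ratio of 0.34 ± 0.50, and at 1.41-fold and 0.925 of it with kallisto. By gene TPM the interferon-γ receptor genes thus held an unequal ratio that was close in the 2 libraries. The type I receptor genes were nearly level by gene TPM in library 2. With RSEM, the longest coding transcript Ifnar1-201 held 52.2 TPM in library 1 against 29.5 for Ifnar2-201. In library 2 it held 30.8 against 17.7. Ifngr1-201 held 47.0 TPM against 17.8 for Ifngr2-201 in library 1, and 32.8 against 15.4 in library 2. By these transcripts the type I pair was not level in library 2, and the contrast in steadiness did not hold. By CPM of the whole gene, not divided by length, Ifnar1 stood above Ifnar2 in both libraries. The values were 312 against 118 in library 1 and 211 against 104 in library 2. For Ifngr1 against Ifngr2 they were 118 against 79.2 in library 1 and 95.7 against 72.6 in library 2. The gap between these 2 genes was thus narrower by CPM than by TPM.

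Ifnar1 RNA was divided between spliced and partly unspliced transcripts. The full-length coding transcript Ifnar1-201 took 53.9% of the gene's RSEM TPM in library 1 and 57.9% in library 2. The transcript Ifnar1-205, annotated as a retained intron, took 39.6% and 35.6%, and kallisto gave it 38.9% and 35.1%. It ends inside intron 2, after 1970 of that intron's 2811 bases, so its reads lie near the start of the gene. Its 1665 and 859 counts had a posterior SD of 6.55 and 4.71, small beside the counts. By length it held 745 and 385 counts per kb, against 1060 and 656 counts per kb for Ifnar1-201. As a share of counts it was smaller, at 27.0% and 23.7%.

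The reads that set these transcripts apart begin where exon 2 ends. Sequence of GENCODE M21 transcripts (mm10, plus strand) is given for the last 30 bases of exon 2 (chr16:91489790-91489819) in lower case, followed in capitals by the next 30 bases. In Ifnar1-201 these belong to exon 3, which begins at 91492631, and in Ifnar1-205 they belong to intron 2 and open with the GT of its splice donor.
Ifnar1-201: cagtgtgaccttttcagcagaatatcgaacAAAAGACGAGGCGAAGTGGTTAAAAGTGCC
Ifnar1-205: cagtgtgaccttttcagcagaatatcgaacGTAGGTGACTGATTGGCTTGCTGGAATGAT

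Ifngr1 showed a similar form at its own exon 2. Ifngr1-201, the coding transcript, took 60.6% of RSEM TPM in library 1 and 64.5% in library 2, and the retained-intron transcript Ifngr1-202 took 24.2% and 22.7%. Ifngr1-202 keeps the first 321 of the 3789 bases of intron 2. As a share of counts it was 8.10% and 7.22%, since TPM divides by its short length. The same boundary is shown for Ifngr1 (exon 2, chr10:19597501-19597530, then the next 30 bases in capitals), where the retained form again opens with GT.
Ifngr1-201: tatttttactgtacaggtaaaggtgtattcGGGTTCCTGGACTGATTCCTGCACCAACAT
Ifngr1-202: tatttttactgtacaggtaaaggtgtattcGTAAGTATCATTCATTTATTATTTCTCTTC

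These shares were not extreme for this fraction. With all retained-intron transcripts of a gene summed, Ifnar1 had a mean share of 37.6% ± 2.83 (SD, n = 2), at percentile 73.4 of the 5058 protein-coding genes that annotate such a transcript and held 100 or more counts in both libraries. Ifngr1 had 29.7% ± 0.982, at percentile 60.3, beside a median of 24.0% over those genes. M21 annotates no retained-intron transcript for Ifnar2 or Ifngr2, so no share exists for them. Reads from an intron awaiting splicing and from one kept in a finished RNA cannot be told apart.

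Ifnar2 RNA was divided between forms with and without exon 8. In mice and humans this gene is known to give both a membrane-spanning chain and a secreted chain that binds interferon outside the cell. Ifnar2-201 has a coding length of 1539 bases. The most hydrophobic stretch of 19 residues in its translation past the signal peptide, with a mean Kyte-Doolittle hydropathy of 2.40, lies in exon 8. Ifnar2-203 ends 127 bases into intron 7, with a coding length of 744 bases, of which 709 are shared with Ifnar2-201. Ifnar2-202 joins exon 7 to the last exon and skips exon 8, with a coding length of 741 bases. The highest hydropathy of either short form, by the same measure, was 1.16.

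The last 30 bases of exon 7 (chr16:91393884-91393913, mm10, plus strand) are given in lower case, and the capitals show how the 3 forms go on. Ifnar2-201 continues into exon 8 at 91399218, Ifnar2-202 into the last exon at 91403710, and Ifnar2-203 reads on into intron 7.
Ifnar2-201: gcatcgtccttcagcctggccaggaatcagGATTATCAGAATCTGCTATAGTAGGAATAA
Ifnar2-202: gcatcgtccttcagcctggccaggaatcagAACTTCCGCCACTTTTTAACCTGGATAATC
Ifnar2-203: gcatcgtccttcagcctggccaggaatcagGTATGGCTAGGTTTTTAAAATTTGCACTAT

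Ifnar2-203 held 321 counts (posterior SD 21.3) in library 1 and 480 counts (18.2) in library 2, while Ifnar2-201 held 1794 (52.7) and 1134 (36.9). The short form thus had more counts in the library in which the long form had fewer. As shares of RSEM TPM, Ifnar2-203 took 28.0% in library 1 and 45.0% in library 2, and Ifnar2-201 took 49.2% and 33.0%. Kallisto gave Ifnar2-203 37.4% and 49.1%, higher in library 2 as well. Ifnar2-202 was minor, at 2.64 TPM in each library. Of the TPM of these 3 full forms, those without exon 8 took 39.7% in library 1 and 60.2% in library 2 with RSEM, and 49.9% and 62.5% with kallisto, or 20.3% and 35.4% of counts. The remaining TPM lay in Ifnar2-204 and Ifnar2-205, partial models without exon 8, of which Ifnar2-205 took 9.87% and 15.6%. Ifnar2-203 reads on into the intron, so RNA that ends there and RNA not yet spliced cannot be told apart by these counts.

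**Figure D2:**
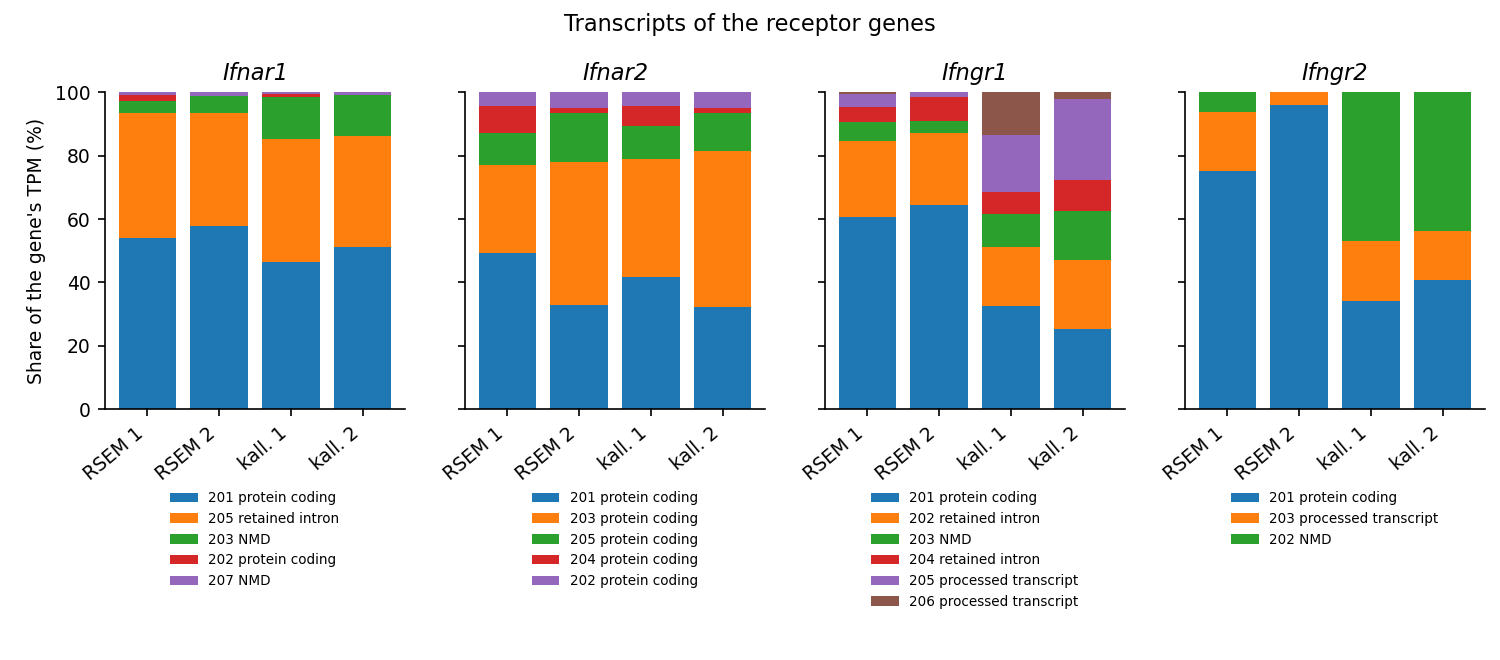
Share of each receptor gene's TPM (%) in its annotated transcripts, by RSEM and kallisto in libraries 1 and 2 (NMD, annotated as nonsense-mediated decay); transcripts under 0.5% in every bar are left out. Ifnar1-205 and Ifnar2-203 hold large shares with both programs, while the shares of Ifngr1 and Ifngr2 differ between the programs.

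Ifngr2 was mostly 1 transcript with RSEM and not with kallisto. Ifngr2-201, its only coding transcript, took 75.1% of RSEM TPM in library 1 and 95.9% in library 2, but 34.0% and 40.9% of kallisto TPM. The short transcript Ifngr2-202, annotated for nonsense-mediated decay, took 47.0% and 43.9% with kallisto and 6.12% and 0% with RSEM. Ifngr2-203 held 220 and 34.4 counts with RSEM, with a posterior SD of 50.6 and 34.3, so in library 2 its count and its error were nearly equal. For Ifngr1, kallisto likewise gave the coding transcript less, at 32.6% and 25.2%. The transcript makeup of the interferon-γ chains therefore depended on the program, while that of Ifnar1-205 did not.

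Of the 4 receptor genes 3 lie in 1 cluster on chromosome 16 (chr16:91372783-91565623), with Il10rb, which encodes a shared chain of the receptors for interleukin-10 and interferon-λ. The cluster spans 193 kb and holds 12 annotated genes, of which 6 were detected. Il10rb, 574 bases past the end of Ifnar2, stood at 99.9 and 87.6 TPM, above each of its neighbours in both libraries. Across the cluster the order was Ifnar2 at 59.9 and 53.7 TPM, Il10rb, Ifnar1 at 96.8 and 53.1 TPM, and Ifngr2 at 23.7 and 16.1 TPM. The non-coding genes Gm49625 and A930006K02Rik between Il10rb and Ifnar1 were detected at 1.14 to 2.04 TPM. Gm21970, a protein-coding model on the same strand that overlaps Ifnar2 and Il10rb, held 1.74 counts in library 1 and 0 in library 2. No gene on the other strand overlaps any of the 5 members. Past Ifngr2, the next gene Tmem50b stood at 3.50 and 3.20 TPM. Next to Ifngr1 lies Il22ra2, the gene of a secreted interleukin-22 receptor, with 0 counts in both libraries. The genes beside Ifnb1 were Hacd4 at 27.3 and 37.1 TPM and Ifna15 with 0 counts.

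**Figure D3:**
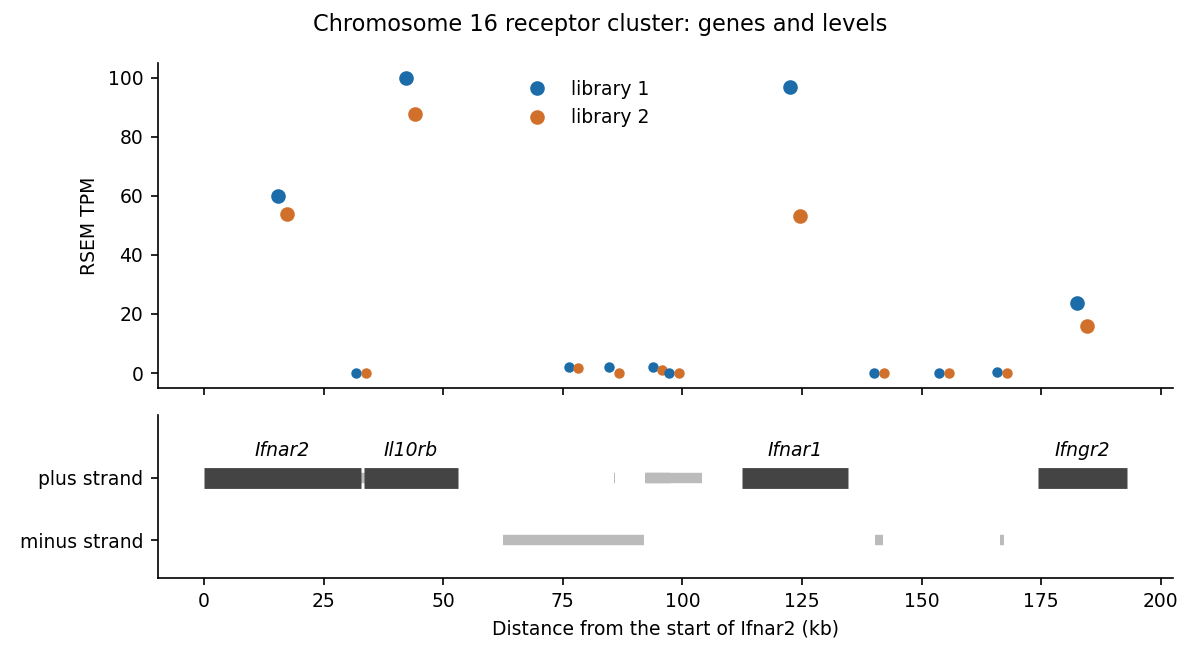
RSEM TPM of each gene in the chromosome 16 receptor cluster (upper panel; library 1 blue, library 2 orange) above the gene spans by strand (lower panel), against distance from the start of Ifnar2 (kb). The 4 named receptor genes, all on the plus strand, stand above the other genes, which lie near 0.

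Genes that act on either side of the ligand and its receptors were nearly all expressed. Of all protein-coding genes 49.9% were detected. The members' median level was 59.9 and 50.9 TPM in the first and second library. Of the 6 genes of receptor-proximal kinases and factors, all were detected, with a median of 57.1 and 37.3 TPM, and Jak1 was the lowest by the mean of both libraries, at 37.0 and 29.8 TPM. Tyk2, the partner of IFNAR1, stood at 70.2 and 38.3 TPM, and Jak2, the partner of IFNGR2, at 44.0 and 36.2 TPM. All 8 genes that restrain receptor signalling were detected, with a median of 34.2 and 20.6 TPM. They ran from Socs3, whose product blocks JAK kinases, at 166 and 121 TPM to the kinase gene Prkd2 at 1.84 and 1.17 TPM. Of these 8 genes, 6 stood above Ifnb1 in both libraries, and Socs1 lay below it, at 4.46 and 1.76 TPM. Usp18, whose product binds IFNAR2 and blunts the response to type I interferon, stood at 87.7 and 68.4 TPM, above Ifnar2 in both libraries.

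All 9 genes of the TLR4 arm that leads to Ifnb1 were detected, with a median of 15.5 and 18.8 TPM. Ikbke, a kinase that activates IRF3 and IRF7, was highest at 547 and 275 TPM, and Ticam1, the gene of TRIF, lowest by the mean of both libraries, at 6.45 and 6.18 TPM. Of the factors known to bind the Ifnb1 enhancer and their cofactors, 10 of 10 were detected. All 10 stood above Ifnb1 in both libraries. Ifnb1 itself stood at percentile 61.1 of detected protein-coding genes in library 1 and 50.1 in library 2, so many genes lay above it. Irf1 was highest by the mean of both libraries, at 618 and 300 TPM, and the acetyltransferase gene Crebbp was lowest at 20.0 and 16.1 TPM. Irf3 stood at 51.0 and 32.7 TPM. The 4 receptor chains belong to the wider class II cytokine receptor family. Of 8 other genes of this family 3 were detected, beside 49.9% of all protein-coding genes. The 3 were Il10ra at 135 and 71.6 TPM, Il10rb, and Il20rb at 3.44 and 1.74 TPM. Ifnlr1, the specific chain for interferon-λ, held 1 count in library 1 and 0 in library 2. The specific chain for interferon-λ thus stayed below the detection minimum, while its shared chain Il10rb did not.

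**Figure D4:**
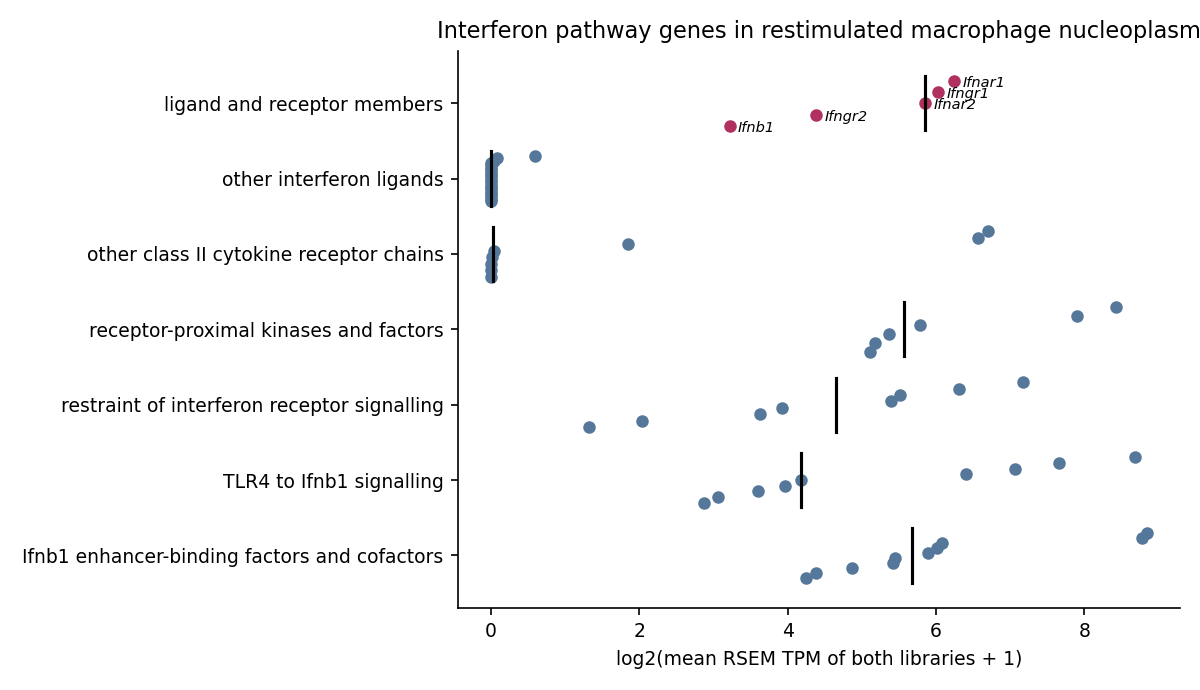
Mean level of both libraries, as log2(TPM + 1), of the 5 members (top row, red) and of 6 groups of related genes (blue points, 1 per gene; black bars, median of the group). Ifnb1 lies at the low end of the members, the other interferon ligands lie at or near 0, and every factor gene in the bottom row lies to the right of Ifnb1.

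Between the libraries, none of the 5 genes was over 2-fold apart once the median shift of detected protein-coding genes, -0.36 on the log2 scale, was removed. Of all detected protein-coding genes 6.01% were over 2-fold apart. Without removing the shift the count was also 0 of 5, beside 10.7% of all, with Ifnb1 at -0.98. The centred log2 ratio of library 2 over library 1 was -0.62 for Ifnb1 (95% counting interval -1.07 to -0.18), -0.51 for Ifnar1 (-0.57 to -0.45), -0.25 for Ifngr1 (-0.34 to -0.16) and -0.20 for Ifngr2 (-0.31 to -0.09). For Ifnar2 it was above 0, at 0.20 (0.11 to 0.29), and Il10rb beside it stood at 0.17. The sign of Ifnar2 turned to -0.090 with edgeR TMM factors on counts, which are not scaled by transcript length, and Ifngr2 stood at -0.035 by that measure. Without centring Ifnar2 was at -0.16. Ifngr1 was at 0.0017 with kallisto. Among 2844 genes with a mean count of 50 to 200, as Ifnb1 has, the centred ratio had an SD of 0.60, and 12.6% stood as low as Ifnb1 or lower. The RNA input differed between the libraries along with these values, and the 2 cannot be told apart.

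**Figure D5:**
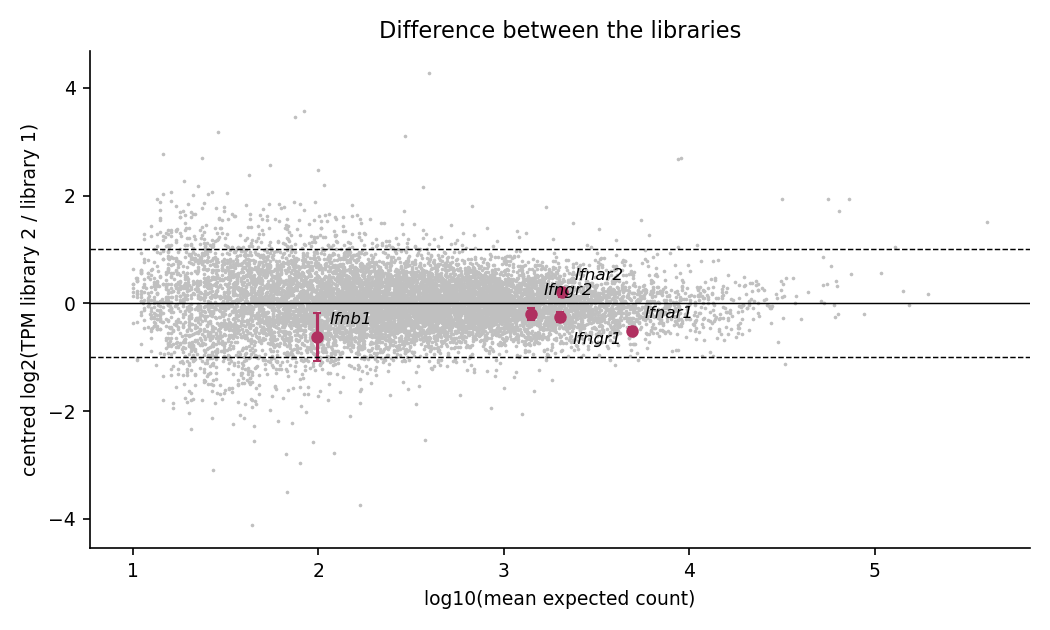
Centred log2 ratio of TPM in library 2 over library 1 against log10 of the mean expected count, for detected protein-coding genes (grey) and the 5 members (red, with 95% counting intervals); dashed lines mark 2-fold. All 5 members lie inside the dashed lines, and the interval of Ifnb1 is the widest of the 5.

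The genes closest in level were found by the distance between log2 TPM values over the 2 libraries, among 10991 protein-coding genes. With only 2 libraries this likeness says that levels were close and no more. For Ifnb1 they were Eml3 (distance 0.0132), at 11.1 and 5.55 TPM, and the immediate-early factor gene Egr3 (0.0211), at 10.9 and 5.64 TPM. For Ifnar1 they were the proteasome gene Psmd8 (0.0372) and Abr (0.0593), and for Ifnar2 Serinc3 (0.0135) and the ribosomal protein gene Rpl13a (0.0267). For Ifngr1 they were Pid1 (0.0109) and the nucleoside transporter gene Slc28a2 (0.0124), and for Ifngr2 Kansl3 (0.00933) and Arhgef7 (0.0310).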

How the data were processed

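The deposited files were 3 tables per library, a gene and a transcript table in RSEM layout and a transcript table in kallisto layout. The submitters' notes name mm10 and GENCODE M21; no program version, and no strand setting for the counting, is stated there. The authors deposited expected counts, estimates that need not be whole, and TPM, scaled by effective length over all features of each table. The posterior SD of a count, a score of its precision, is also as deposited. Features outside M21 (26345) were left out.

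Members were joined by gene ID. Percentiles are ranks of mean TPM among protein-coding genes with 10 or more expected counts in both libraries. The ± beside a percentile is the SD of the percentiles taken within each of the 2 libraries. Shares, ratios and centred log2 differences were computed in Python 3.11.15 (pandas 2.3.3, SciPy 1.17.1). edgeR 4.0.16 in R 4.3.3 gave TMM factors only, on expected counts rounded to whole numbers. The ratio step was tested on simulated counts. Counting intervals are exact (Poisson or Clopper-Pearson) and cover counting error only, since no molecular identifiers are mentioned and reads may be copies of 1 molecule. Sequences come from RefSeq (GRCm38.p6; 5 of 5 members matched) and M21 transcripts.

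Named genes were all members, the highest and lowest detected gene of each list, adjacent genes, the 2 nearest in level, transcripts with at least 5% of a gene's TPM in both libraries, and genes or further transcripts (of Ifnar2 and Ifngr2) whose role or structure ties them to a result, the last chosen after their values were seen. The highest gene of 1 list is not reported here. Members and lists were chosen with earlier results of these data known. The samples form 1 group of 2 libraries, so nothing was tested between conditions.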

Additional observations from a re-analysis of the deposited data

How the results depend on the processing

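Of 81 values recomputed from both libraries under another setting, 42 moved by less than the spread or counting error of the main value, 36 moved by more and 3 changed sign. The 30 values with 1 library left out are no check of stability, since for ratios and shares a mean of 2 always lies within its SD of either value. Percentiles of Ifnb1, Ifnar1, Ifnar2, Ifngr1 and Ifngr2, in that order, were 47.5, 92.2, 91.6, 94.9 and 85.4 with kallisto TPM. A minimum of 50 counts gave 46.9 for Ifnb1, 91.1 for Ifnar2, 92.3 for Ifngr1 and 72.9 for Ifngr2. No minimum gave 93.9 for Ifnar2, 94.7 for Ifngr1 and 81.4 for Ifngr2. CPM, not scaled by length, gave 26.6 for Ifnb1, 87.7 for Ifnar2, 87.1 for Ifngr1 and 81.7 for Ifngr2, so the short Ifnb1 transcript ranks lower by counts. With 1 library left out, percentiles ran from 50.1 to 61.1 for Ifnb1 and from 93.3 to 95.2 for Ifnar1. The mean log2 ratio of Ifnb1 over Ifnar1 was -3.08 with kallisto, -3.03 with a pseudocount of 1 and -5.67 by CPM. Over Ifngr1 it was -3.61 with kallisto and -4.40 by CPM, over Ifngr2 -2.23 and -3.91, and over Ifnar2 -4.46 by CPM. Every one of these ratios kept Ifnb1 below the receptor gene. The ratio of Ifnar1 over Ifnar2 ran from -0.017 to 0.69 with 1 library left out. The library difference of Ifnar2 was -0.090 and that of Ifngr2 -0.035 with TMM factors, that of Ifnar2 was -0.16 without centring, and that of Ifngr1 was 0.0017 with kallisto. Ifngr2 kept its sign. The cause of the sign changes of Ifnar2 and Ifngr1 was not tested. Checks of the paired receptor ratios and of the Ifnar2 forms were added after seeing the data. No paired analysis was possible because there is only 1 group. Depth limits Ifnb1 most, with 129 and 67 counts.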
